A study of Mus musculus with 9 samples.

Results

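The genes described here are 35 mouse genes of fatty acid oxidation and of the response to the PPAR nuclear receptors, read in organoids of small intestine, which are epithelial cultures grown in a gel. They were taken by name from a fixed list, and each gene was read by its brightest probe set, the group of short probes that gives 1 signal on the Affymetrix array. A probe set was found for 34 of the 35 genes, out of 18193 genes with a probe set in all. Acsl1, a long-chain acyl-CoA synthetase, was not analysed here. All 34 genes passed the filter on dim probe sets and were among the 12932 genes tested. The first group of 3 arrays came from organoids given an inhibitor of TGF-beta receptors 1 and 2 at 20 uM. The second group of 3 came from organoids given the ligand TGF-beta1 at 0.04 ng/mL, and the third group of 3 from organoids given nothing. Agents were present for 5 days starting on day 1 of a 6-day culture. The labels name no strain, age, vehicle or inhibitor compound, and no genetic change in any group.

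PPAR receptors are transcription factors that bind fatty acids and pair with an RXR receptor on DNA. Their targets in liver and gut include many enzymes that break down fatty acids, and Ppara is a main regulator of them. For oxidation, a fatty acid is joined to coenzyme A and carried into mitochondria as a carnitine ester. It is then shortened in cycles of dehydrogenation, hydration, a second dehydrogenation and thiolysis. Peroxisomes run a parallel cycle on very long and branched chains, and electron transfer flavoproteins pass the electrons of the mitochondrial acyl-CoA dehydrogenases on to the respiratory chain. Enterocytes, the absorptive cells of the small intestine, take up dietary fat and express much of this machinery.

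Signals are linear MAS5 values with no unit, and changes are differences of log2(signal + 16), given as estimate ± SE with n = 3 arrays a group. A gene is said to be called, to have risen or to have fallen where limma's adjusted p over all 12932 genes was under 0.05. Whether the replicates of a treatment were grown separately is not stated, so each p-value covers only array-to-array spread, part or all of which could be technical. The trimmed mean of the table was 348.7 to 349.0 on the 9 arrays, and 28.9% of all values were no higher than the added 16. Probe sets differ in brightness for technical reasons, so signals are compared between groups and never between genes. Pmepa1, a gene induced by TGF-beta, had mean signals of 83.7 with inhibitor, 630.9 with ligand and 204.5 in untreated organoids, the direction that the treatment labels give. Of 10 markers of small intestinal epithelium all passed the filter. With inhibitor Vil1 and Cdhr5 rose and Cdx1 and Cdx2 fell, and with ligand Krt18 rose and Cdhr5 and Gata4 fell, each where limma's test was passed. Markers of other cell types passed the filter in 2 of 8 measured genes for fibroblasts (Col1a2, Pdgfra), 4 of 9 for leukocytes (Lyz2, Cd68, Csf1r, Adgre1), 1 of 6 for endothelium (Kdr) and 1 of 4 for adipocytes (Retn). Of these, Cd68 and Csf1r rose by 0.66 and 0.92 and Lyz2 fell by 0.69 with inhibitor, and Lyz2 rose by 0.41 with ligand, whose part in the results was not tested. The summed signal of the leukocyte markers was 1048 to 1193 with inhibitor, 1553 to 2404 with ligand and 1374 to 1551 in untreated organoids, and that of each of the other 3 types stayed under 200 on every array. Genes that define those types, such as Col1a1, Ptprc, Pecam1 and Adipoq, stayed under the filter. Within a group the members' median SD on the log2 scale was 0.07 with inhibitor, 0.12 with ligand and 0.10 in untreated organoids. Ligand replicate 3 was the highest of its group in 22 of the 34 members, beside 39.9% of all genes. Untreated replicate 3 was the lowest of its group in 25 members. Their median deviations from the group mean were 0.068 and -0.080 over the members, beside 0.010 and 0.002 over all genes. Both comparisons with untreated organoids use the same 3 untreated arrays.

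Fatty acid oxidation genes were mostly lower with the TGF-beta1 ligand, and a smaller set was higher with the receptor inhibitor. With ligand 20 of 34 members fell against untreated organoids, where 9.30% of all genes fell, and 1 member rose, where 14.7% of all genes rose. The median member changed by -0.30 with ligand, beside 0.05 for all genes. With inhibitor 11 of 34 members rose, where 21.0% of all genes rose, and 2 fell, where 23.8% of all genes fell. The median member change with inhibitor was 0.09, beside -0.01 for all genes. The 11 that rose were Angptl4, Acaa1b, Crot, Pdk4, Acsl5, Vnn1, Pex11a, Acadl, Acaa2, Cpt1a and Hsd17b4. In bulk RNA, fewer cells of a type and less RNA per cell cannot be told apart.

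The groups often stood apart without overlap. With ligand 24 members lay wholly below the untreated arrays, where 14.4% of all genes did, and 1 lay wholly above, where 24.2% did. With inhibitor 14 members lay wholly above the untreated arrays, where 26.6% of all genes did, and 1 lay wholly below, where 29.3% did. In 12 members all ligand arrays lay under all untreated arrays and these under all inhibitor arrays, an order found in 6.73% of all genes. These were Acsl5, Cpt1a, Crot, Acadvl, Acadl, Acaa2, Eci2, Acaa1b, Hsd17b4, Pex11a, Etfb and Angptl4. By group means, where arrays may overlap, 21 members followed that order, and 9 were lowest with ligand and highest in untreated organoids. The share of all genes in either order of means was not computed, and the 6.73% does not apply to it. These orders describe the levels and are not independent evidence from 2 comparisons, since both use the same untreated arrays.

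**Figure D1:**
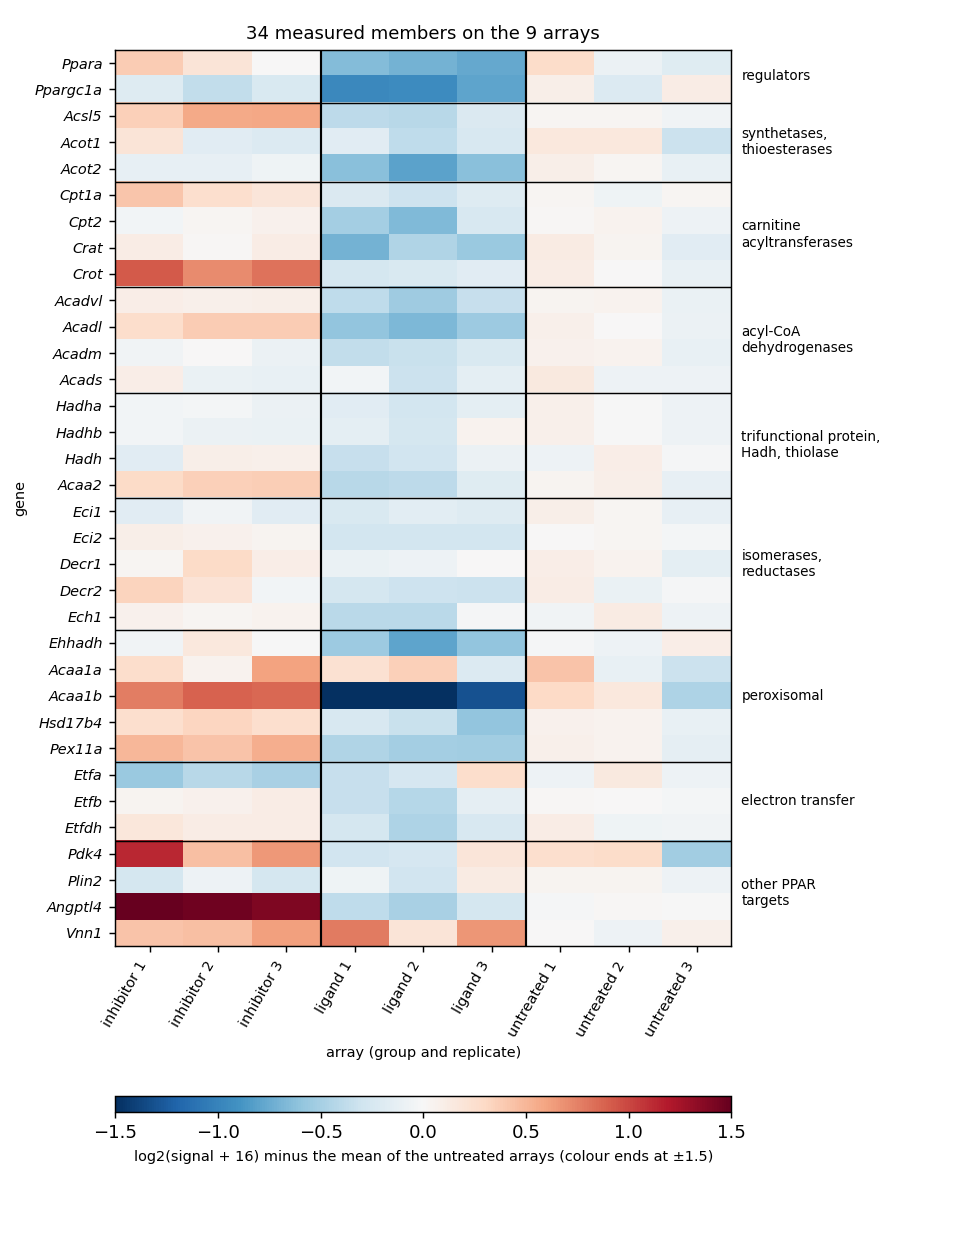
Each of the 34 measured members (rows, grouped by role) on each of the 9 arrays (columns), as log2(signal + 16) minus the mean of the untreated arrays. Most rows are blue on the 3 ligand arrays, and Crot, Acaa1b and Angptl4 are among the reddest rows on the 3 inhibitor arrays.

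**Figure D2:**
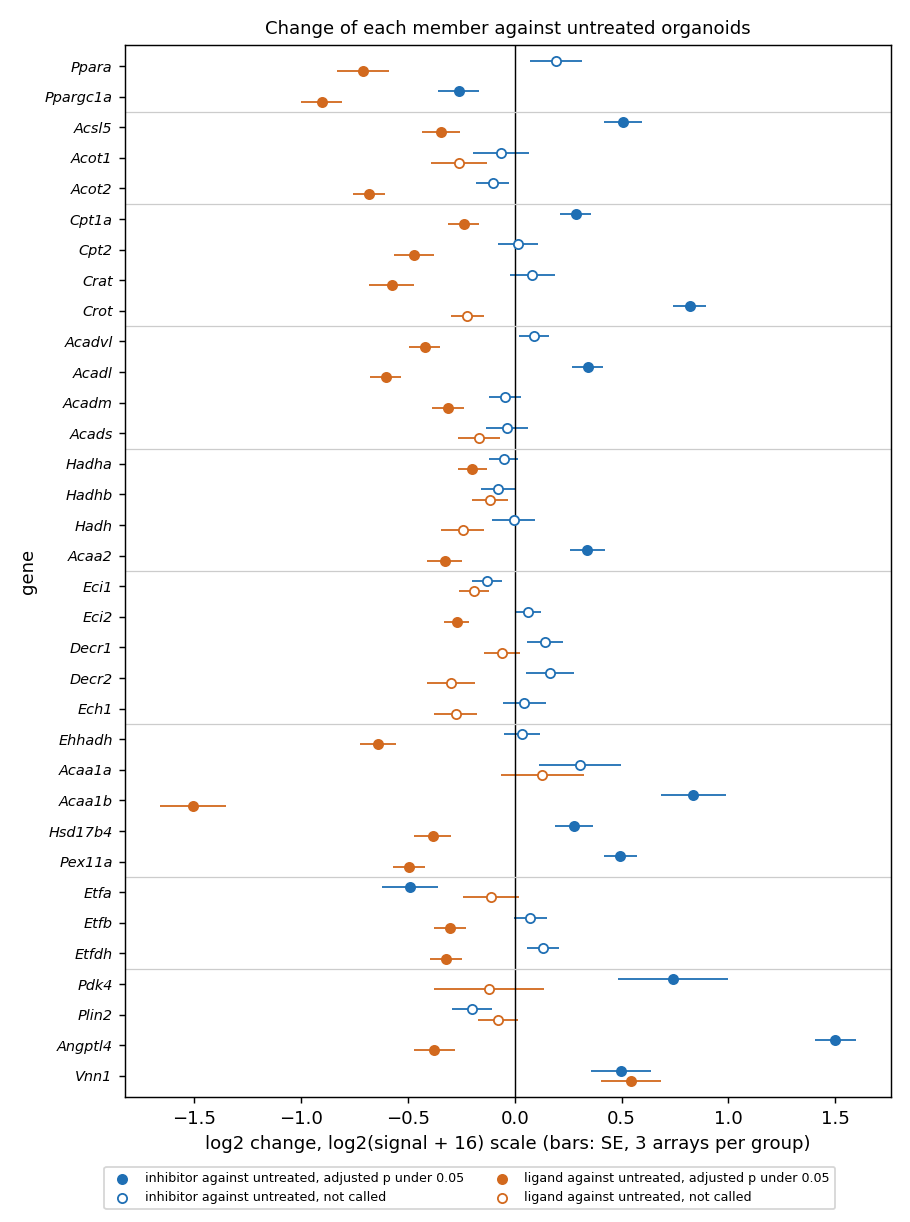
Change of each member against untreated organoids on the log2(signal + 16) scale, with inhibitor (blue) and with ligand (orange); bars are SE, n = 3 arrays a group, and filled points had a limma adjusted p under 0.05. The ligand points run between -1.51 (Acaa1b) and 0.54 (Vnn1), and the inhibitor points between -0.49 (Etfa) and 1.50 (Angptl4).

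Both regulators in the list fell with the ligand. Ppara, the fatty acid receptor itself, had signals of 286.8, 274.4 and 262.7 with ligand, against 557.1, 430.3 and 402.8 in untreated organoids, a change of -0.71 ± 0.12 (limma adjusted p 0.000944). All 3 ligand arrays lay below all 3 untreated arrays. With inhibitor Ppara read 602.9, 527.5 and 459.5, which overlapped the untreated arrays and gave a change of 0.19 ± 0.12 (limma adjusted p 0.221, 95% interval -0.07 to 0.46). Without untreated replicate 1, the highest of its group, that change was 0.33 with a limma adjusted p of 0.0338. Ppara had 3 probe sets above the filter, and each was lower with ligand, the others by 0.57 and 0.85 (limma adjusted p over all probe sets 0.0213 and 0.00430).

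Ppargc1a, a coactivator that works with PPARs and other receptors on mitochondrial genes, fell with ligand on each of its 5 probe sets. It read 363.1, 369.5 and 413.6 with ligand, against 773.5, 630.5 and 789.0 in untreated organoids, a change of -0.90 ± 0.10 (limma adjusted p 2.24e-05). With inhibitor it read 635.9, 560.6 and 617.2, a change of -0.26 ± 0.10 (limma adjusted p 0.0391). The ligand arrays were all lower than every other array, whereas the inhibitor arrays overlapped the untreated ones. The inhibitor call was lost on leaving out replicate 1 or 3 of untreated, or replicate 2 or 3 of inhibitor (limma adjusted p 0.130, 0.145, 0.146 and 0.0686). It was also lost with no filter, quantile normalization, median centring, the mean of probe sets or no intensity trend (limma adjusted p 0.0565, 0.0675, 0.0915, 0.0856 and 0.0687). In the fit over all probe sets 1 of the 5 was called lower with inhibitor (-0.43), and another had a change of 0.11.

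Promoter sequence was examined for the DNA element that PPARs bind, because many members moved together. RefSeq windows (build GRCm38.p6) of 250 bases before to 50 bases after a start listed for a gene were matched to 29 of the 35 members. That start is not always the outermost one: Cpt1a begins at base 3322326 of its chromosome, and its window begins at 3323051. The element is a direct repeat called DR1, written AGGTCANAGGTCA, and it was sought on both strands with up to 2 mismatches among its 12 fixed letters. It occurred in 2 of the 29 members (6.9%), Etfa and Plin2, and in 4.4% of 27025 genes with a window. The half-site AGGTCA, which is part of the DR1 and can overlap it, was sought on both strands without mismatch. It occurred in 4 of the 29 members (13.8%), Acadm, Acadvl, Cpt1a and Plin2, and in 18.1% of genes. The 3 windows printed here hold a match, shown in capitals (the DR1 in Plin2 and Etfa, overlapped by the half-site in Plin2, and the half-site in Cpt1a). Cpt1a is the gate of the carnitine shuttle, whereas Plin2 and Etfa did not follow the other members. They lie at chr19:3323051-3323350 on the plus strand (Cpt1a), chr4:86670010-86670309 on the minus strand (Plin2) and chr9:55512194-55512493 on the minus strand (Etfa).
Cpt1a: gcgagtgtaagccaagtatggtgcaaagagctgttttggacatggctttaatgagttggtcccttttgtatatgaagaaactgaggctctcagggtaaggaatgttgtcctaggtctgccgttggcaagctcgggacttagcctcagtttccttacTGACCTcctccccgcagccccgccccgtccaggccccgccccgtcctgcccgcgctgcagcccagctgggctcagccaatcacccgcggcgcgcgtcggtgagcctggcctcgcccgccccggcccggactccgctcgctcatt
Plin2: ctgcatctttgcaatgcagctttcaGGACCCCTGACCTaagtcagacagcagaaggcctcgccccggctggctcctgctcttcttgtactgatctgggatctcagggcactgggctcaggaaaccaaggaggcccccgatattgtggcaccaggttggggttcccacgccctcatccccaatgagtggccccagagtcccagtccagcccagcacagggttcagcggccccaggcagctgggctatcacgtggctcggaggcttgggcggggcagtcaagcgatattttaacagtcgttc
Etfa: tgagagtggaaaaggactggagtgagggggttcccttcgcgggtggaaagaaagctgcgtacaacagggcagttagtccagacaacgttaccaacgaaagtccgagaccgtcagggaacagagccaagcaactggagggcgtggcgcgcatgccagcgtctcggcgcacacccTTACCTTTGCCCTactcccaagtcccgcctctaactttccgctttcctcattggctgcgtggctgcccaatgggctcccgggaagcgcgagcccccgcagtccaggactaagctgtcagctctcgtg

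The window of Acaa1b, the member with the largest ligand change, is shown for contrast and held neither motif. It lies at chr9:119157044-119157343 on the minus strand of GRCm38.p6. Its 43.7% of G and C bases and 4 CpG sites were the lowest among the 29 member windows, whose medians were 60.7% and 15. Over 10459 tested genes with a window the medians were 60.7% and 20. A match is a run of letters and not a measured binding site, and elements outside these windows were not examined.
Acaa1b: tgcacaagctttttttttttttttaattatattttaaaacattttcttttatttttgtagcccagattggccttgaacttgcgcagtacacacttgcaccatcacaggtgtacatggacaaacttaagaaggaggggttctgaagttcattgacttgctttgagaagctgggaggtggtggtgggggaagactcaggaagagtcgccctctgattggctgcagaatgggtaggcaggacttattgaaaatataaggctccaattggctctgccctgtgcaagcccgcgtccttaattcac

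Among genes that activate fatty acids or release them again, Acsl5, a long-chain acyl-CoA synthetase abundant in the small intestine, moved in opposite directions. It read 10999, 12751 and 12829 with inhibitor, 6508, 6393 and 7386 with ligand, and 8771, 8714 and 8234 in untreated organoids. The inhibitor change was 0.50 ± 0.09 and the ligand change -0.34 ± 0.09 (limma adjusted p 0.000441 and 0.0129), and no group overlapped another. The ligand call was lost without untreated replicate 1 or ligand replicate 2 (limma adjusted p 0.0526 and 0.0547).

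The thioesterases Acot1 and Acot2, which split acyl-CoA back into fatty acid and coenzyme A in cytosol and mitochondria, did not rise with inhibitor. Acot2 fell with ligand, with signals of 722.5, 637.8 and 721.8 against 1194, 1141 and 1035 in untreated organoids, a change of -0.68 ± 0.08 (limma adjusted p 3.23e-05). The ligand arrays lay below all untreated arrays and below the inhibitor arrays, which read 1031, 1029 and 1069. Acot1 averaged 1565 ± 251 with inhibitor, 1353 ± 97 with ligand and 1641 ± 297 in untreated organoids (SD, n = 3 each) and was not called. Its ligand change was -0.26 ± 0.13 (limma adjusted p 0.173), and -0.42 without untreated replicate 3, which lay far below the other untreated arrays (limma adjusted p 0.0187). A dimmer probe set of Acot2 alone also fell with ligand, by 0.45 ± 0.11 (limma adjusted p over all probe sets 0.0153). A probe set that reads both genes fell with ligand by 0.57 ± 0.11 (limma adjusted p over all probe sets 0.00347). This set cannot tell Acot1 from Acot2, so the ligand change of Acot1 as a separate gene is uncertain.

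All 4 carnitine acyltransferases lay below the untreated arrays without overlap under the ligand, and 3 of them were called lower, where 14.4% of all genes lay wholly below and 9.30% were called lower. Cpt1a, the rate-limiting enzyme that makes acyl-carnitine at the outer mitochondrial membrane, read 1883, 1684 and 1604 with inhibitor, 1211, 1136 and 1232 with ligand, and 1440, 1351 and 1439 in untreated organoids. Its changes were 0.28 ± 0.07 with inhibitor and -0.24 ± 0.07 with ligand (limma adjusted p 0.00620 and 0.0304), and the 3 groups did not overlap. The ligand call was lost without untreated replicate 1, untreated replicate 3, ligand replicate 1 or ligand replicate 2 (limma adjusted p 0.0956, 0.0844, 0.0608 and 0.0973). Taking the mean of its probe sets, neither Cpt1a change was called (0.24 and -0.30, limma adjusted p 0.267 and 0.216). Both of its other probe sets were dimmer and are of the _x_at kind described below. The ligand arrays read 547.3, 381.7 and 163.5 on the brighter of these, and 133.5, 152.3 and 63.8 on the other. Ligand replicate 3 was thus lowest on both, and its part in the lost calls was not tested.

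Crot, which makes carnitine esters of medium chains in peroxisomes, rose with inhibitor. It read 2688, 2312 and 2497 with inhibitor, 1167, 1197 and 1250 with ligand, and 1519, 1411 and 1302 in untreated organoids. The inhibitor arrays lay 0.82 ± 0.08 above the untreated ones, or 1.76-fold (limma adjusted p 2.53e-06). All ligand arrays lay under all untreated arrays, by -0.22 ± 0.08, but this did not pass the test (limma adjusted p 0.0527); it did without untreated replicate 3 or ligand replicate 3 (limma adjusted p 0.0320 and 0.0411). Cpt2, which turns acyl-carnitine back into acyl-CoA inside the mitochondrion, and Crat, the carnitine acetyltransferase, fell with ligand by 0.47 ± 0.09 and 0.58 ± 0.11 (limma adjusted p 0.00275 and 0.00147). Their inhibitor changes were 0.02 and 0.08 and were not called. As the mean of its probe sets the ligand change of Crat was -0.32 and not called (limma adjusted p 0.0945). That mean includes an _x_at set on which the ligand arrays read 172.6, 244.7 and 79.8, again lowest on replicate 3.

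The acyl-CoA dehydrogenases carry out the first step of the cycle and differ in the chain length they take. Acadl, the long-chain enzyme, read 5533, 5974 and 5972 with inhibitor, 3054, 2867 and 3138 with ligand, and 4855, 4606 and 4333 in untreated organoids. It rose with inhibitor by 0.34 ± 0.07 and fell with ligand by 0.60 ± 0.07 (limma adjusted p 0.00178 and 6.08e-05), with all 3 groups apart. Acadvl, for very long chains, fell with ligand by 0.42 ± 0.07, averaging 1662 ± 110 against 2231 ± 136 in untreated organoids (limma adjusted p 0.000836). Acadm, for medium chains, fell by 0.31 ± 0.08, with means of 4507 ± 243 with ligand and 5600 ± 369 in untreated organoids (limma adjusted p 0.00910). For Acads, for short chains, the ligand change was -0.17 ± 0.10 with a 95% interval of -0.38 to 0.04 (limma adjusted p 0.244), and its groups overlapped. Acadvl, Acadm and Acads had inhibitor changes between -0.05 and 0.09, none called.

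The 4 members of the later mitochondrial steps had ligand changes between -0.33 and -0.12. The trifunctional protein is built of Hadha, which holds the hydratase and the hydroxyacyl-CoA dehydrogenase, and Hadhb, which holds the thiolase. Hadha read 1840, 1702 and 1869 with ligand, against 2181, 2068 and 1968 in untreated organoids, a change of -0.20 ± 0.07 at the edge of the threshold (limma adjusted p 0.0462). The ligand arrays were all lower, but the call was lost without untreated replicate 1 or 2, any 1 of the inhibitor arrays, or ligand replicate 1 or 2, with limma adjusted p between 0.0605 and 0.169. The call was also lost with no filter, quantile normalization, no intensity trend, only the 2 groups fitted or a replicate block. Hadhb averaged 3890 ± 82 with inhibitor, 3801 ± 433 with ligand and 4106 ± 206 in untreated organoids. Its ligand change was -0.12 ± 0.08 with a 95% interval of -0.30 to 0.06 and overlapping groups (limma adjusted p 0.354).

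The genes for the trifunctional protein lie head to head. The RefSeq promoter window of Hadha, at chr5:30154931-30155230 on the minus strand of GRCm38.p6, shares 228 bases with the window of Hadhb on the plus strand. It is shown because both genes start just outside the shared bases, on either side, and are read away from them in opposite directions. Capitals mark the shared bases.
Hadha: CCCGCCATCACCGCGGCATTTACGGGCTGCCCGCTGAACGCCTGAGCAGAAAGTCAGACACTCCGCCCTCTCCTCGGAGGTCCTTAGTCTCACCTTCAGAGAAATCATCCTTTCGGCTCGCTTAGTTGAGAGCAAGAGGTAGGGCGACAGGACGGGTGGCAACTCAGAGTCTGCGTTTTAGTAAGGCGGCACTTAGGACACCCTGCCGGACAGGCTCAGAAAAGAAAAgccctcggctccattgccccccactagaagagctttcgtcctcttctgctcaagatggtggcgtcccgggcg

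Acaa2, the mitochondrial thiolase for medium and long chains, read 4458, 4680 and 4702 with inhibitor, 2737, 2764 and 3221 with ligand, and 3733, 3881 and 3335 in untreated organoids. It rose with inhibitor by 0.34 ± 0.08 and fell with ligand by 0.33 ± 0.08 (limma adjusted p 0.00438 and 0.0112). The ligand arrays were lowest and the inhibitor arrays highest throughout. The ligand call was lost without untreated replicate 2 (limma adjusted p 0.0553) or ligand replicate 1 (limma adjusted p 0.05002). Hadh, a hydroxyacyl-CoA dehydrogenase for shorter chains, was not called: its ligand change was -0.24 ± 0.10 (limma adjusted p 0.101), and -0.32 without ligand replicate 3 (limma adjusted p 0.0271). Hadh was read by a probe set whose name ends in _x_at, which marks probes that may also match other transcripts. Its probe set without that mark fell with ligand by 0.40 ± 0.11 (limma adjusted p over all probe sets 0.0254).

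Enzymes that prepare unsaturated chains for the cycle showed inhibitor changes between -0.13 and 0.16, which did not pass the test. Eci2, an enoyl-CoA isomerase, fell with ligand by 0.27 ± 0.06, averaging 1852 ± 1.6 against 2238 ± 43 in untreated organoids (limma adjusted p 0.00459). The mitochondrial isomerase Eci1 changed by -0.19 ± 0.07 with ligand, and the peroxisomal dienoyl-CoA reductase Decr2 by -0.30 ± 0.11. Neither passed the test (limma adjusted p 0.0684 and 0.0699), although their ligand arrays lay below all untreated arrays. Ech1, a dienoyl-CoA isomerase, changed by -0.28 ± 0.10 with ligand (limma adjusted p 0.0612), and Decr1, the mitochondrial reductase, by -0.06 ± 0.08 (limma adjusted p 0.673). Without ligand replicate 3, its brightest ligand array, Ech1 fell by 0.41 (limma adjusted p 0.00130), and without untreated replicate 3 Eci1 fell by 0.25 (limma adjusted p 0.0313).

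Of 5 members grouped as peroxisomal (Ehhadh, Acaa1a, Acaa1b, Hsd17b4 and Pex11a), 4 fell with ligand, where 9.30% of all genes fell. In this group 3 rose with inhibitor, where 21.0% of all genes rose. Crot and Decr2, described above as peroxisomal, were grouped by enzyme type, and neither was called with ligand. Eci2 and Ech1, also grouped by enzyme type, were not sorted by location here. Of these Eci2 was called lower with ligand (limma adjusted p 0.00459) and Ech1 was not called. Acaa1b, a peroxisomal ketoacyl-CoA thiolase that catalyses the last step of that cycle, read 4828, 5242 and 5153 with inhibitor, 965, 881 and 1133 with ligand, and 3495, 3162 and 2057 in untreated organoids. It rose with inhibitor by 0.84 ± 0.15, or 1.79-fold, and fell with ligand by 1.51 ± 0.15, a change of -64.8% on that scale (limma adjusted p 0.000616 and 1.69e-05). The 3 groups did not overlap, and untreated replicate 3 was the lowest of its group. Pex11a, a membrane protein that promotes peroxisome division, read 970.1, 920.6 and 1002 with inhibitor, 491.4, 472.9 and 469.9 with ligand, and 717.8, 708.1 and 617.2 in untreated organoids. Its changes were 0.49 ± 0.08 and -0.49 ± 0.08 (limma adjusted p 0.000145 and 0.000414), and the groups stood fully apart.

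The peroxisomal bifunctional enzymes each combine hydratase and dehydrogenase activities. Hsd17b4 read 2688, 2840 and 2705 with inhibitor, 1919, 1799 and 1498 with ligand, and 2360, 2340 and 2097 in untreated organoids. It rose with inhibitor by 0.28 ± 0.09 and fell with ligand by 0.38 ± 0.09 (limma adjusted p 0.0216 and 0.00671), without overlap. Leaving out untreated replicate 3, or inhibitor replicate 2, ended the inhibitor call (limma adjusted p 0.0918 and 0.0746). Hsd17b4 was read by an _x_at probe set, and ligand replicate 3 was low on many of these: 13.0% of 1745 such probe sets lay over 0.5 below their group median there, against 1.03% to 2.87% on the other arrays. With another probe set the ligand change was -0.18 and not called (limma adjusted p 0.0685).

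Ehhadh, the other bifunctional enzyme, fell with ligand. It read 2232, 2585 and 2315 with inhibitor, 1589, 1333 and 1538 with ligand, and 2285, 2202 and 2477 in untreated organoids. The ligand change was -0.64 ± 0.08 (limma adjusted p 0.000122), with every ligand array lowest. The inhibitor and untreated arrays overlapped, with a difference of 0.03 ± 0.08 and a 95% interval of -0.15 to 0.21.

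**Figure D3:**
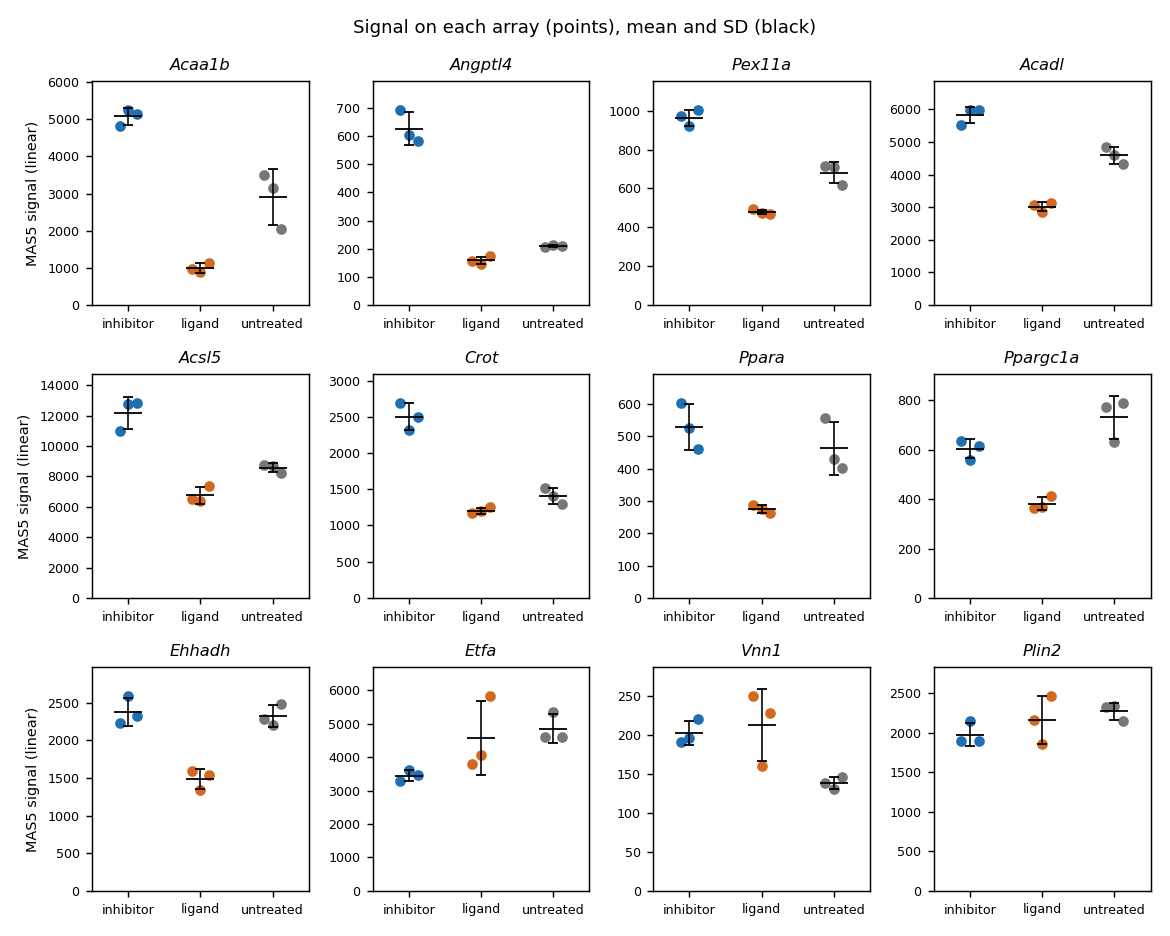
MAS5 signals (linear, axes starting at 0) of 12 members on each array, with inhibitor, with ligand and in untreated organoids; black bars are means and SD, n = 3. Acaa1b averaged 5074 with inhibitor, 993 with ligand and 2905 in untreated organoids, while the ligand arrays of Plin2 and Vnn1 overlap the inhibitor arrays.

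The peroxisomal thiolases come in near-identical copies in mouse, Acaa1a and Acaa1b, and their probe sets did not all move alike. The brightest probe set named for Acaa1a alone, an _x_at set, averaged 391 ± 80 with inhibitor, 344 ± 70 with ligand and 317 ± 93 in untreated organoids and was not called. Its changes were 0.31 ± 0.20 with inhibitor and 0.13 ± 0.20 with ligand in the fit over all probe sets (limma adjusted p 0.261 and 0.733). In the fit over genes the inhibitor change passed the test once untreated replicate 1 was left out (0.52, limma adjusted p 0.0342).

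A dimmer _x_at set of Acaa1a rose with inhibitor by 0.49 ± 0.17 and fell with ligand by 0.71 ± 0.17 (limma adjusted p over all probe sets 0.0390 and 0.0131). Its ligand arrays read 232.0, 195.4 and 132.3, lowest on replicate 3, where many _x_at sets were low. The 2 probe sets shared by both genes rose with inhibitor by 0.71 ± 0.09 and 0.61 ± 0.11 and fell with ligand by 0.62 ± 0.09 and 0.55 ± 0.11. For the probe set of Acaa1b alone the same fit gave 0.84 ± 0.16 and -1.51 ± 0.16. The values of Acaa1a are therefore uncertain, since RNA of either copy may reach a probe set named for the other. No member had probe sets called in opposite directions within any 1 of the 3 comparisons, among the 16 members with over 1 such probe set.

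**Figure D4:**
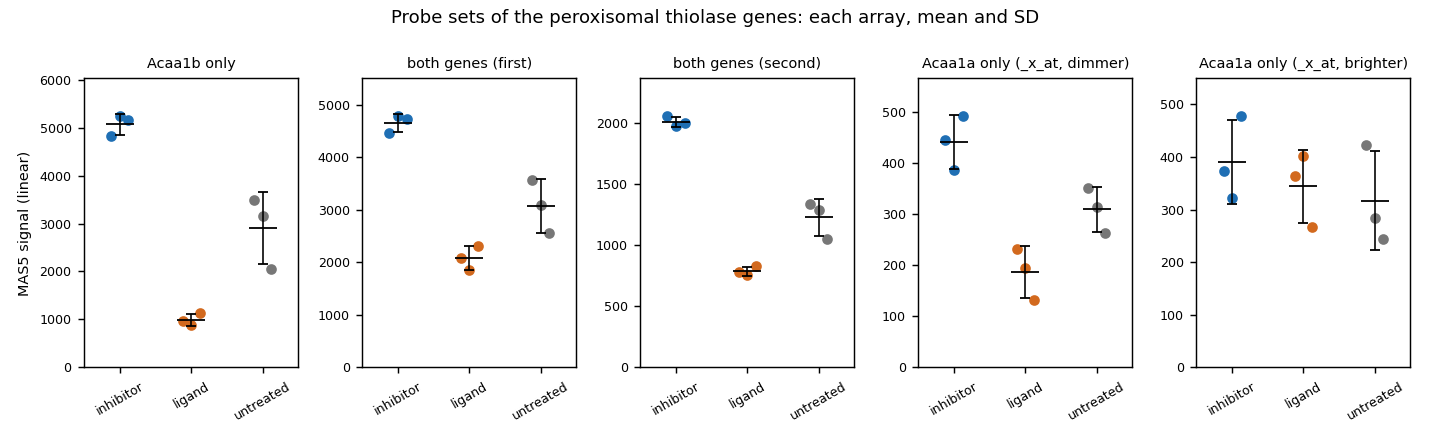
Signals of the probe sets of the peroxisomal thiolases on each array, for sets named for Acaa1b, for both genes and for Acaa1a. The sets of Acaa1b and the shared sets separate the 3 groups, whereas the brighter Acaa1a set, with means of 391, 344 and 317 for inhibitor, ligand and untreated arrays, does not.

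The electron transfer genes split. Etfb, one subunit of the flavoprotein, and Etfdh, the enzyme that hands its electrons to ubiquinone, fell with ligand by 0.30 ± 0.08 and 0.32 ± 0.08 (limma adjusted p 0.0105 and 0.00807). Etfa, the other subunit, read 3277, 3614 and 3455 with inhibitor, 3802, 4070 and 5828 with ligand, and 4607, 5356 and 4610 in untreated organoids. It fell with inhibitor by 0.49 ± 0.13 (limma adjusted p 0.00755), and all inhibitor arrays lay under all others. With ligand, where replicate 3 was the highest of the 9 arrays, the change was -0.11 ± 0.13 (limma adjusted p 0.592). Without that array Etfa fell with ligand by 0.30 (limma adjusted p 0.0177).

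Of the PPAR targets outside oxidation itself, Angptl4, a secreted inhibitor of lipoprotein lipase, gave the largest inhibitor change of any member. It read 691.7, 603.7 and 582.1 with inhibitor, 157.3, 145.9 and 172.8 with ligand, and 207.3, 213.6 and 209.9 in untreated organoids. It rose 2.83-fold with inhibitor, by 1.50 ± 0.10, and fell with ligand by 0.38 ± 0.10 (limma adjusted p 8.53e-08 and 0.0115). No group overlapped another. As the mean of its probe sets the ligand change was -0.35 and not called (limma adjusted p 0.113).

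Vnn1, a pantetheinase of the enterocyte surface, rose with both agents. It read 191.0, 195.3 and 220.3 with inhibitor, 249.4, 160.4 and 227.5 with ligand, and 138.3, 130.9 and 146.0 in untreated organoids. The changes were 0.50 ± 0.14 with inhibitor and 0.54 ± 0.14 with ligand (limma adjusted p 0.0106 and 0.0126). All treated arrays lay above all untreated arrays, and the ligand call was lost without ligand replicate 1 (limma adjusted p 0.0599). A dimmer probe set of Vnn1 changed by 0.36 ± 0.16 with inhibitor and 0.47 ± 0.16 with ligand. Neither change was called (limma adjusted p over all probe sets 0.110 and 0.0698).

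Pdk4, a kinase that restrains pyruvate dehydrogenase and so spares glucose, was dim. It read 77.6, 42.3 and 51.1 with inhibitor, 19.2, 19.9 and 32.3 with ligand, and 34.8, 35.6 and 13.9 in untreated organoids, where the filter level was 25.9 to 32.0. It rose with inhibitor by 0.74 ± 0.26 (limma adjusted p 0.0324), with all inhibitor arrays above all others. The call was lost without untreated replicate 3 (0.48, limma adjusted p 0.142), inhibitor replicate 1 (limma adjusted p 0.147) or inhibitor replicate 3 (limma adjusted p 0.0580). Plin2, which coats lipid droplets, averaged 1975 ± 148 with inhibitor, 2160 ± 301 with ligand and 2268 ± 110 in untreated organoids, with overlapping groups. Its inhibitor change was -0.20 ± 0.10 with a 95% interval of -0.40 to 0.01 (limma adjusted p 0.107), and it passed the test without ligand replicate 3 (limma adjusted p 0.0425).

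Set directly against inhibitor, the ligand gave lower signals for 23 of 34 members, where 22.9% of all genes were lower, and a higher signal for 1, where 32.4% were higher. The median member difference was -0.48, beside 0.07 for all genes. In 25 members the ligand arrays lay wholly below the inhibitor arrays, as in 25.5% of all genes, and in 1 they lay wholly above, as in 35.1%. The differences were -2.34 ± 0.15 for Acaa1b, -1.88 ± 0.10 for Angptl4, -1.04 ± 0.08 for Crot, -0.99 ± 0.08 for Pex11a and -0.94 ± 0.07 for Acadl (limma adjusted p between 4.62e-09 and 1.77e-07). Etfa was the member higher with ligand than with inhibitor, by 0.38 ± 0.13 (limma adjusted p 0.0243). This call was lost without inhibitor replicate 1, inhibitor replicate 3 or ligand replicate 3 (limma adjusted p 0.0777, 0.0560 and 0.0637), and without that ligand array the difference was 0.19.

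Some direct differences turned on 1 array. Ech1 was lower with ligand by 0.32 ± 0.10 (limma adjusted p 0.0143), which was lost without ligand replicate 1 or 2 (limma adjusted p 0.0663 and 0.0648). Pdk4 was lower by 0.86 ± 0.26 (limma adjusted p 0.0121), which was lost without inhibitor replicate 1 (limma adjusted p 0.0669). The differences of Hadha, Hadh, Decr1 and Plin2 were not called with all arrays. Hadha passed without ligand replicate 3 (limma adjusted p 0.0449), and Plin2 without ligand replicate 2 (limma adjusted p 0.0493). Hadh passed without inhibitor replicate 1 or ligand replicate 3 (limma adjusted p 0.0160 and 0.0127). Decr1 passed without untreated replicate 3, inhibitor replicate 1 or ligand replicate 3 (limma adjusted p 0.0462, 0.0382 and 0.0417).

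The share of genes higher under the ligand depended on how arrays were scaled. Of all genes called with ligand against untreated organoids 61.3% were higher, and 54.1% after quantile normalization or 36.4% after centring each array on its median. For ligand against inhibitor these shares were 58.6%, 51.7% and 41.7%. Centring moved the median change of all genes to -0.06 against untreated and -0.09 against inhibitor. Under it 24 members fell with ligand and the median member change was -0.41, and after quantile normalization 21 fell.

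Other genes of the pathway also fell more often than they rose with ligand and rose more often than they fell with inhibitor. Of 95 further genes, 77 were tested. With inhibitor 27 rose (35.1%) and 12 fell (15.6%), beside 21.0% and 23.8% of all genes, with a median of 0.07 beside -0.01. With ligand 4 rose (5.19%) and 29 fell (37.7%), beside 14.7% and 9.30% of all genes, with a median of -0.19 beside 0.05. Further PPAR targets rose with inhibitor in 10 of 22 (45.5%) and fell with ligand in 10 of 22, and further peroxisomal genes rose in 9 of 20 and fell in 9 of 20. Further mitochondrial genes rose in 6 and fell in 6 of 25 with inhibitor, about the shares of all genes (21.0% and 23.8%). With ligand 2 of them rose and 6 fell, beside 14.7% and 9.30% of all genes. Among 10 receptors, partners and coactivators, 4 fell with ligand: Ppard, Rxra, Esrra and Creb3l3. With inhibitor Creb3l3 and Esrra rose and Pprc1 and Rxrb fell, 20.0% each way, about the shares of all genes.

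By size of change, the further genes that rose most with inhibitor were Cd36, Abhd5, Ephx2 and Cidec. Cd36, a fatty acid transporter, averaged 470 ± 55 with inhibitor, 78.7 ± 12 with ligand and 160 ± 37 in untreated organoids, with changes of 1.48 ± 0.15 and -0.88 ± 0.15 (limma adjusted p 4.90e-06 and 0.000934). Ephx2, the soluble epoxide hydrolase, followed it with 1.05 ± 0.10 and -0.99 ± 0.10 (limma adjusted p 2.65e-06 and 1.48e-05). Abhd5, which activates the triglyceride lipase Pnpla2, and Cidec, which helps lipid droplets merge, rose with inhibitor by 1.24 ± 0.09 and 1.04 ± 0.11 (limma adjusted p 3.79e-07 and 6.23e-06). With ligand they changed by -0.14 and -0.19 and were not called. G0s2, an inhibitor of Pnpla2, fell with both agents, by 0.52 ± 0.12 with inhibitor and 1.29 ± 0.12 with ligand (limma adjusted p 0.00373 and 1.01e-05). Acot3, a peroxisomal thioesterase, fell with ligand by 1.00 ± 0.23 (limma adjusted p 0.00693). Its inhibitor rise of 0.88 ± 0.23 was 0.55 without untreated replicate 3 (limma adjusted p 0.00719 and 0.0160).

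A small set ran the other way, lower with inhibitor, higher with ligand or both. Acsm3, a medium-chain acyl-CoA synthetase, averaged 45.7 ± 4.0 with inhibitor, 416 ± 34 with ligand and 112 ± 20 in untreated organoids, with changes of -1.04 ± 0.13 and 1.76 ± 0.13 (limma adjusted p 3.36e-05 and 1.96e-06). Acat1, the mitochondrial acetoacetyl-CoA thiolase of ketone body metabolism, averaged 1373 ± 67 with inhibitor, 4754 ± 229 with ligand and 2610 ± 107 in untreated organoids. Its changes were -0.92 ± 0.07 and 0.86 ± 0.07 (limma adjusted p 3.65e-07 and 2.73e-06), and both genes separated the 3 groups. Pecr, a peroxisomal enoyl-CoA reductase, and Acsl6, a long-chain acyl-CoA synthetase, fell with inhibitor by 1.10 ± 0.10 and 0.97 ± 0.17 (limma adjusted p 2.65e-06 and 0.000500). Pecr changed by 0.30 with ligand (limma adjusted p 0.0559), which passed without ligand replicate 3 (limma adjusted p 0.0232). Slc27a1, a fatty acid transport protein, and Ucp3, a mitochondrial carrier, rose with ligand by 0.73 ± 0.12 and 0.48 ± 0.15 (limma adjusted p 0.000541 and 0.0320). The Ucp3 call was lost without untreated replicate 1 or 2 or any 1 of the ligand arrays, with limma adjusted p between 0.0626 and 0.108.

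**Figure D5:**
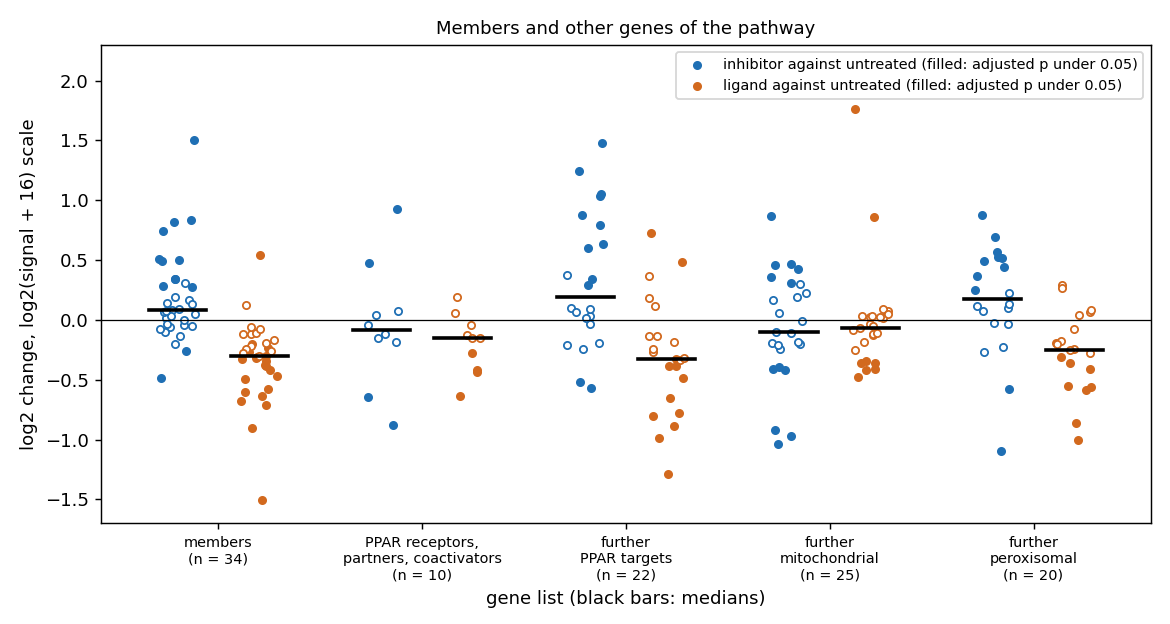
Change against untreated organoids (log2 scale) of the 34 members and of 4 lists of further pathway genes, with inhibitor (blue) and ligand (orange); filled points had a limma adjusted p under 0.05 and black bars are medians. The members' medians are 0.09 and -0.30, and the highest ligand point is Acsm3 at 1.76.

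Between the ligand and inhibitor groups the further genes included Pprc1, a coactivator related to Ppargc1a, which was higher with ligand by 1.07 ± 0.08. Creb3l3, a membrane-bound transcription factor of liver and gut that works with Ppara, was lower with ligand by 1.57 ± 0.13 (limma adjusted p 8.39e-08 and 2.80e-07). Fabp1, the liver-type fatty acid binding protein and a PPAR target abundant in enterocytes, averaged 18382 ± 2310 with inhibitor, 15559 ± 568 with ligand and 18741 ± 1300 in untreated organoids. It was called in none of the 3 comparisons, with limma adjusted p of 0.824 for the inhibitor and 0.0835 for the ligand against untreated organoids, and 0.0763 between the agents. Without inhibitor replicate 1 both ligand differences of Fabp1 passed the test (limma adjusted p 0.0369 and 0.00928). Cyp4a14, a fatty acid hydroxylase that PPAR agonists induce in liver, stayed under the filter at mean signals of 13.2 with inhibitor, 16.6 with ligand and 21.4 in untreated organoids. Cyp4a10 was read only on a probe set shared with Cyp4a31.

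Marker genes of cell types moved with these groups. Of 15 measured markers of absorptive enterocytes 10 rose with inhibitor (66.7%, beside 21.0% of all genes), while 1 rose and 9 fell with ligand (beside 14.7% and 9.30% of all genes). Their median changes were 0.72 and -0.40. Their summed signal was 76449 to 91136 with inhibitor, 41672 to 47041 with ligand and 56943 to 63543 in untreated organoids. Of 11 measured markers of stem and dividing cells 10 fell with inhibitor (90.9%, beside 23.8% of all genes) and 5 rose with ligand (45.5%, beside 14.7%). Their summed signal was 20306 to 21660 with inhibitor, 49404 to 57027 with ligand and 42432 to 47052 in untreated organoids. Of 8 goblet cell markers 4 fell with inhibitor, and 1 rose and 2 fell with ligand. Of 6 measured Paneth cell markers 2 fell with inhibitor and 2 rose with ligand. The part of these cell types in the members' changes was not tested. The log2 ratio of the 3 prime to the 5 prime probe sets of Actb, a sign of RNA quality, averaged 0.21 with inhibitor, 0.47 with ligand and 0.41 in untreated organoids, and its part was not tested either. For Gapdh the same ratio was -0.28, -0.27 and -0.26 in that order.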

How the data were processed

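RNA of 9 small intestinal organoid samples, 3 per treatment, was read on the Affymetrix Mouse Genome 430 2.0 array. Per the labels' protocols RNA was extracted with the miRNeasy kit and biotin-labelled with a MessageAmp Premier 3 prime kit. The deposited values are linear intensities, which the authors made with MAS5 per the submitters' processing notes, without a stated version or scaling target. MAS5 subtracts mismatch signal, which leaves dim values noisy, and scaling to 1 level removes differences in total RNA.

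Of 45037 probe sets, 34945 had 1 gene symbol in the supplied annotation, 932 had several and 9160 had none there. Signals were turned into log2(signal + 16). A probe set passed the filter (28653 did) if at least 3 arrays read it above their own 40th percentile, a signal of 25.9 to 32.0. The brightest probe set with a single symbol represented a gene, and the gene was tested if that probe set passed. Limma 3.58.1 in R 4.3.3 fitted 1 mean per group over the 9 arrays with an intensity trend, which left 6 residual degrees of freedom. Tests were 2-sided with Benjamini-Hochberg adjustment over 12932 genes at 0.05, and the fit was tested on simulated data. Intervals are 95% intervals of the fit. With 3 arrays a group, the number of arrays limits the precision. No scan date or slide was given in the sources used here, so batches could not be examined.

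Arrays were grouped by the treatment in their labels. The alternatives were the added offset, the filter, the scaling, the choice of probe set, the variance trend, the groups fitted, a replicate block and leaving out each array. Named members are those called, up to 5 per direction and comparison by size of change, plus those called in opposite directions against untreated; up to 4 further pathway genes per direction were named likewise, and Cyp4a10, Cyp4a14, Fabp1 and Cd36 whatever their values. Some genes are not reported here. The members, lists and rules were chosen with earlier results of these data known. Set tests were not run. Promoter windows came from a RefSeq table (GRCm38.p6), matched by symbol.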

Additional observations from a re-analysis of the deposited data

How the results depend on the processing

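Of the members called with all arrays and main settings, 9 of 13 for inhibitor against untreated, 13 of 21 for ligand against untreated and 20 of 24 for ligand against inhibitor kept their call under every alternative, leaving out each array included. Members lower with inhibitor numbered 2, and 1 with no filter, quantile normalization, median centring, the mean of probe sets or no intensity trend, and 3 with only the 2 groups fitted. Members higher with ligand than untreated numbered 1, and 0 after quantile normalization, where Vnn1 had a limma adjusted p of 0.0502. Members higher with ligand than with inhibitor numbered 1, and 0 after median centring or with no intensity trend, where Etfa had a limma adjusted p of 0.240 and 0.0592. All genes higher with ligand than untreated numbered 1904, and 984 after median centring. The member median moved to -0.41 against untreated and -0.63 against inhibitor under median centring. The inhibitor change of Hadh was -0.01, and 0.15 after quantile normalization (limma adjusted p 0.0106). The causes were not tested.

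Leaving out each array in turn gave, for inhibitor against untreated, 9 to 13 members higher, 1 to 3 lower and medians of 0.06 to 0.13. For ligand against untreated it gave 0 to 1 higher, 17 to 24 lower and medians of -0.36 to -0.26, and for ligand against inhibitor 0 to 2 higher, 22 to 26 lower and medians of -0.52 to -0.42. Over all genes it gave 2322 to 2969 higher and 2671 to 3320 lower, 1361 to 1834 higher and 868 to 1319 lower, and 3819 to 4180 higher and 2678 to 3015 lower for these comparisons in that order.

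Deviations of same-numbered arrays from their group means correlated at -0.08 to 0.08. This cannot show whether same-numbered samples shared a culture, which is not stated. With the replicate number as a block, 11 members rose and 2 fell with inhibitor, 1 rose and 19 fell with ligand, and 1 was higher and 24 were lower with ligand than with inhibitor. Signals near the filter level, such as those of Pdk4, limit what small differences can show.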
